A study of Mus musculus with 3 samples.

Results

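The data described here come from a stretch of mouse chromosome 2 that is crowded with olfactory receptor genes, read in RNA of ovulated oocytes. The stretch was chosen by position alone, as chr2:85000001-90000000 of the mm9 build, and was cut into 5000 windows of 1 kb out of 2725738 in the genome. The rule uses no measured value, but the region was picked for description with earlier results of these data known.

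Olfactory receptors are G protein-coupled receptors that bind odorants on the cilia of sensory neurons in the nose. Their genes form the largest gene family of the mouse and lie in tandem clusters, each coding region usually being a single exon. A mature sensory neuron expresses 1 allele of 1 receptor gene, while the remaining copies are packed into silent heterochromatin, and in most tissues outside the nose the clusters are held to be silent. In the RefSeq gene list of GRCm38.p6, another build than that of the files, the longest run of such genes on chromosome 2 counts 225 neighbouring protein-coding genes. Of these, 222 are olfactory receptor genes. The other 3 are Fads2b, Pramel7 and Pramel6, and the run also holds 71 olfactory receptor pseudogenes. It lies between Lrrc55 and Ptprj. Where each of these genes sits in mm9 is not known from the sources used here, so covered places are given by mm9 position and no receptor gene is named.

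The series has 1 group, wild type oocytes, with 1 library from each of 3 litters. The females had a mixed strain background and carried floxed LSD1 alleles on both chromosomes (LSD1 FL/FL), but no ZP3::Cre transgene, which would delete LSD1 in growing oocytes. They were superovulated, the oocytes were lysed by embryonic day 0.5, and the total RNA was amplified by SPIA, a linear copying at constant temperature, before sequencing. The labels do not give the age of the females or the number of oocytes behind a library. Since no mm9 annotation was at hand, the oocyte identity of the samples was not checked against marker genes. Litter 1 gave 35183199 alignments, litter 2 gave 31787887 and litter 3 gave 32028802, each of 72 bases.

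The first question was how much of this RNA came to lie in the receptor cluster. Levels are in CPM, the number of alignments per 1000000 of the library, where an alignment that crosses a border counts by its bases. The cluster held 147 CPM in litter 1, 140.5 CPM in litter 2 and 224 CPM in litter 3, or 171 ± 46.5 CPM (SD, n = 3). It makes up 0.183% of the sequence in the files, and an even spread of alignments would give it 1834 CPM. The measured level was thus 12.4-fold lower than an even spread in litter 1, 13.1-fold in litter 2 and 8.18-fold in litter 3. An even spread is a high mark, because the 100 highest windows of the genome held 39.8%, 37.7% and 28.4% of the alignments in litters 1, 2 and 3. This leaves less for the rest of the genome. By 95% Wilson intervals, which cover counting error only, the level lay between 144 and 152 CPM in litter 1, between 136 and 145 CPM in litter 2 and between 219 and 229.5 CPM in litter 3. Litter 3 therefore stood above the other litters by more than counting error. In such bulk samples, fewer cells that carry an RNA and less of it per cell cannot be told apart.

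Chromosome 2 was cut into 36 consecutive spans of 5 Mb, of which the cluster is 1. The cluster was the second lowest of the 36 in every litter. The median of the other 35 spans was 7.20 times the cluster's level in litter 1, 8.36 times in litter 2 and 5.67 times in litter 3. The lowest span, chr2:95000001-100000000, held 80.5, 105 and 118 CPM in litters 1, 2 and 3, and the third lowest, chr2:60000001-65000000, held 229, 278 and 318 CPM. The cluster was above the first and below the second of these in each litter. The rank is a description, since the spans are not replicates of anything. It stayed at 2 when every start position was counted once, when spans were offset by 2.5 Mb, and when the highest stretch of every span was left out.

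**Figure D1:**
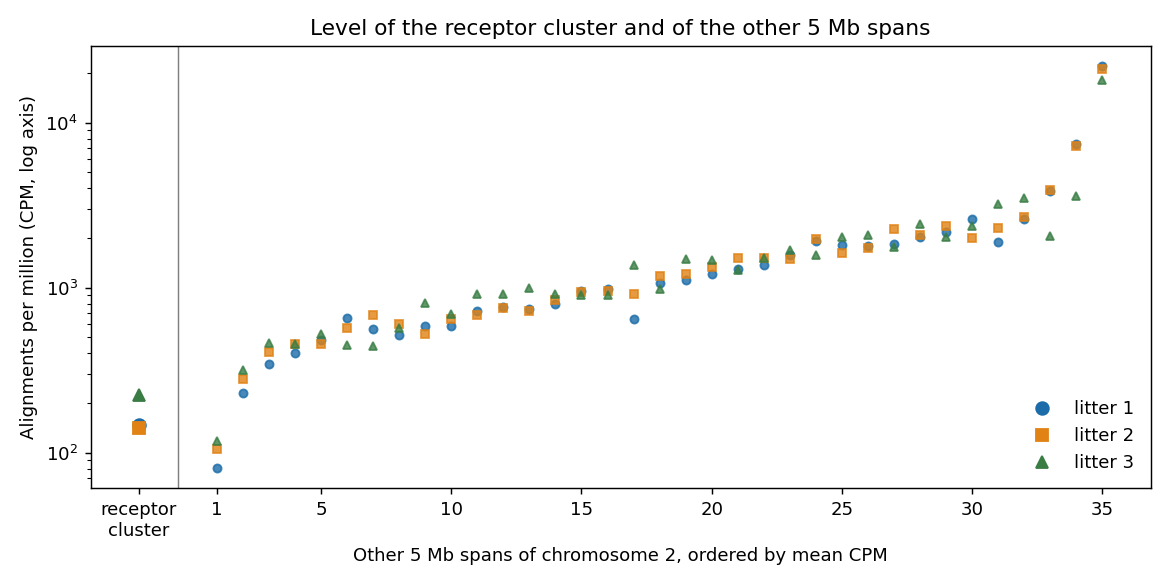
Level of the receptor cluster (left) and of the other 35 spans of 5 Mb of chromosome 2, ordered by mean CPM, with 1 point per litter on a log axis. The cluster sits at 140.5 to 224 CPM, above only the lowest of the other spans, whose median is 1072 CPM as a mean over the litters.

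Most of the cluster held nothing at all, as did most of the genome. Of its 5000 windows, 4716 (94.3%) had no alignment in any litter. The covered remainder was 5.68% of the cluster, against 11.7% of the genome and 12.6% of the other spans. The longest empty run in the cluster, chr2:85408001-85593000, was 185 kb. An empty window allows up to 0.0853 CPM in litter 1, 0.0944 CPM in litter 2 and 0.0937 CPM in litter 3, by the limit of 3 alignments that a count of 0 leaves. Windows with any alignment numbered 174, 130 and 180 by litter, with a mean of 161 ± 27.3 (SD, n = 3), or 3.48%, 2.60% and 3.60% of the cluster. Over the whole genome the same share was 8.42% in litter 1, 7.46% in litter 2 and 7.26% in litter 3. The cluster was thus covered less often than the average of the genome in every library. In all 3 litters at once 75 windows were covered, 1.5% of the cluster, beside 4.56% of the genome.

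Few windows reached 1 CPM. There were 21 in litter 1, 23 in litter 2 and 27 in litter 3, or 0.42%, 0.46% and 0.54% of the cluster, beside 1.87%, 1.88% and 1.85% of the genome. Only 15 did so in all litters, 0.3% of the cluster against 1.22% of the genome. In the other 35 spans of chromosome 2 the share in all litters was 1.36%. At 10 CPM there were 2, 4 and 1 windows in litters 1, 2 and 3.

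The thin background was measured apart from the covered places. Covered bases of any litter were joined over gaps of up to 1000 bases, which gave 213 stretches in the cluster. Of these, 74 (34.7%) were a single alignment in a single litter, and 127 were seen in 1 litter only. The other 35 spans held 407 stretches each on average, of which 21.1% were a single alignment. Outside stretches with at least 10 alignments over the 3 litters, the cluster had 28.7 alignments per megabase for litter 1, 18 for litter 2 and 27.7 for litter 3, with a mean of 24.8 ± 5.92 (SD, n = 3). The median of the other spans was 50.4, 41.4 and 37.6 per megabase in litters 1, 2 and 3. By this background the cluster ranked 2 from the lowest of 36 in litters 1 and 2, and 8 in litter 3. In total the background came to 142, 89 and 137 alignments, out of 5189, 4465 and 7183 in the cluster. These counts are not scaled to library size. Scaled, the background was 0.817, 0.567 and 0.866 CPM per megabase in litters 1, 2 and 3 (0.750 ± 0.160, SD, n = 3), with litter 3 the highest.

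What remained was concentrated in few places. Stretches with at least 10 alignments numbered 56 and held 97.8% of the cluster's alignments, and the 15 highest by mean CPM held 88.7%. Of the 56, 41 (73.2%) were covered in all 3 litters, close to the 77.3% over the other spans. They are spread over the whole cluster, with 14, 11, 13, 10 and 8 in its consecutive megabases. The level is not spread in this way. The third megabase held 93.6, 87.9 and 155 CPM in litters 1, 2 and 3, while the other 4 held between 12.1 and 25.8 CPM in any litter.

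**Figure D2:**
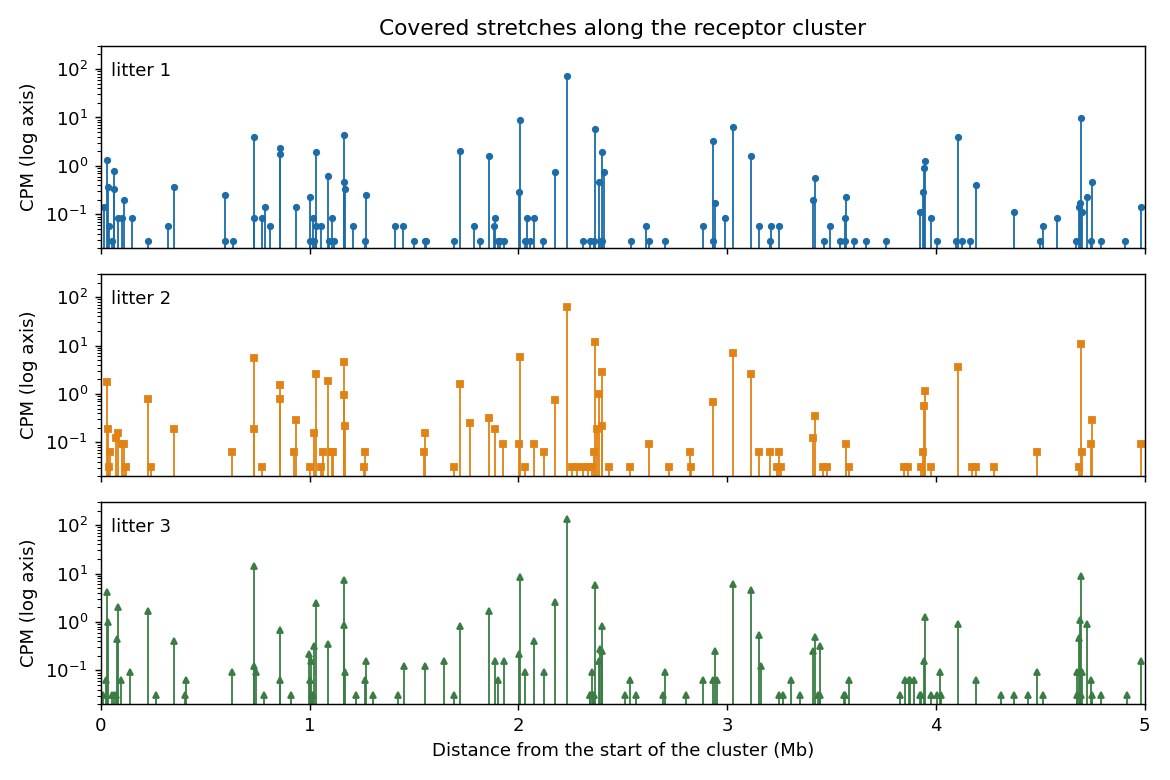
Covered stretches along the receptor cluster by distance from its start, 1 panel per litter, with the CPM of each stretch on a log axis. A single stretch in the third megabase, at 63.8 to 136 CPM, stands above all others in every litter, and wide parts hold nothing.

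The highest stretch, chr2:87233692-87236465, is 2774 bases long. Its alignments numbered 2487, 2028 and 4340 by litter, or 70.7, 63.8 and 136 CPM (90.0 ± 39.6, SD, n = 3). This was 47.9%, 45.4% and 60.4% of all alignments in the cluster. Without it the cluster's level was 76.8, 76.7 and 88.8 CPM in litters 1, 2 and 3 (80.7 ± 6.95, SD, n = 3). The higher level of litter 3 in the cluster thus lay mostly in this stretch.

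Depth along this stretch was uneven in each library. It was deepest at a single peak near its right end, where a base was covered by up to 1214, 876 and 2918 alignments in litters 1, 2 and 3. The peak was narrow, since depth reached 50% of its highest value over 100, 100 and 76 bases in litters 1, 2 and 3. Over the 2774 bases, Pearson's r of depth was 0.99 between litters 1 and 2, while litter 3 had r of 0.97 with litter 1 and 0.95 with litter 2. These values describe likeness along 1 place, where neighbouring bases share reads and the peak weighs most. Away from the peak the order of the litters varied between windows. At chr2:87233001-87234000, with 2.25, 1.42 and 4.65 CPM in litters 1, 2 and 3, litter 3 was the highest, as at the peak. At chr2:87235001-87236000, with 5.32, 7.86 and 6.09 CPM, litter 2 was the highest. The window chr2:87234001-87235000 held 491, 452 and 228 alignments in litters 1, 2 and 3, or 13.96, 14.2 and 7.12 CPM, and was lowest in litter 3. The window with the peak, chr2:87236001-87237000, was at 49.2, 40.3 and 118 CPM and was highest in litter 3. Each start position held 4.79, 3.97 and 8.63 alignments on average in litters 1, 2 and 3, so litter 3 had more alignments on a like number of starts (519, 511 and 503).

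The next question was whether the depth of the covered places recurs elsewhere in the genome. A read that an aligner reports at several places adds the same counts at each, so such reads leave identical counts and spacing at separate places. Identical counts can also arise otherwise, most easily at low counts, and the sources of a match were not told apart. The tracks do not hold read identity, and the number of placements allowed per read is not given in the sources used here. Start positions were taken in runs of 3 neighbours, and runs with at least 50 alignments over the litters were compared with all such runs of the genome, in either direction. In the cluster 27 of 144 runs (18.8%) recurred with identical counts in every litter, near the 21.2% found over the genome and the 19.0% of the other spans of chromosome 2. At lower limits the cluster was above the genome, with 38.1% against 21.9% at 20 alignments per run and 57.7% against 44.1% at 10. The highest stretch held 107 of the 144 runs, of which 1 recurred, so the share was 26 of 37 (70.3%) in the rest of the cluster. The highest stretches of the other spans were not left out in that comparison.

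A second measure, chosen after the data were seen, reached the shallower stretches. It takes runs with at least 10 alignments and keeps those where 3 or more runs of a stretch have copies at the same distance in 1 direction, so that a place counts as a copy only when it repeats a pattern. By it, 24.1% of the cluster's testable alignments lay in copies, against a median of 16.4% and a range of 1.30% to 83.8% over the other spans. Pooled over all testable alignments of the other 35 spans the share was 43.6%, so the cluster was above their median and below their pooled share. Pooling weighs each span by its alignments. The deepest span, chr2:20000001-25000000, with a mean of 20400 CPM against a median of 1072 CPM, also had the highest share, 83.8%. Counted by runs, 34.9% lay in copies in the cluster, above the 16.0% pooled over the other 35 spans. Without the highest stretch the cluster's share of testable alignments was 55.1%, and the highest stretches of the other spans were not left out for comparison. This share rests on fewer alignments, since 55.4% of the rest of the cluster was testable, against 91.2% pooled over the other 35 spans. Only 33 of the 213 stretches held testable alignments. Copies were found for 14 stretches, at 85 places on 19 sequences, and no such count of stretches is given for the other spans. None of the 85 places lay inside the receptor cluster, and 6 lay elsewhere on chromosome 2. Runs with more than 50 copies were left out.

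Of the highest stretch, 7.44% of testable alignments had copies, and these lay in order at 1 place on another chromosome. A total of 79 of its 391 runs recurred on chromosome 18, in the opposite direction, in 5 pieces. From left to right in the cluster, the pieces were chr2:87233789-87233874, chr2:87234246-87234401, chr2:87235179-87235392, chr2:87236173-87236266 and chr2:87236374-87236456. Their counterparts ran from right to left, at chr18:14828816-14828901, chr18:14799480-14799635, chr18:14785211-14785424, chr18:14784334-14784427 and chr18:14784146-14784228. The pieces thus kept their order in both places.

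The distances between the pieces differed between the 2 places. In the cluster the first gap was 371 bases, against 29180 bases on chromosome 18, and the second was 777 bases, against 14055 bases. The other gaps were nearly the same, with 780 bases in the cluster against 783 on chromosome 18, and 107 bases against 105. Altogether the pieces spanned 2668 bases in the cluster and 44756 bases on chromosome 18.

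Total level and highest depth were lower in the cluster than at the place on chromosome 18, which spans more bases. The stretch in the cluster was at 70.7, 63.8 and 136 CPM in litters 1, 2 and 3, while chromosome 18 held 162, 147 and 385 CPM from the first to the last piece (5700, 4666 and 12339 alignments). The highest depth of the stretch in the cluster was 1214, 876 and 2918, against 3670, 2737 and 9010 on chromosome 18, a ratio of chromosome 18 to cluster of 3.02, 3.12 and 3.09. Litter 3 was 2.02 times the mean of litters 1 and 2 in the cluster and 2.5 times on chromosome 18. Both places were therefore highest in litter 3, and their peaks kept nearly the same ratio in every library. The ratio of total levels was less even, at 2.29, 2.30 and 2.84 in litters 1, 2 and 3. How many reads were reported at both places is not known. From which of the places the RNA came was not tested, so the alignments of the stretch, 52.6% of those in the cluster over the litters, need not stem from the cluster.

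The peaks also lay at matching positions. The peak in the cluster, at base 87236321, falls between the last 2 pieces, where counts were not identical. Mirrored through the piece to its left, that base corresponds to 14784279 on chromosome 18, and the highest summed depth there was at 14784271, 8 bases away. The same depth as at the peak in the cluster, in all 3 litters at once, occurred at no other base of the genome.

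**Figure D3:**
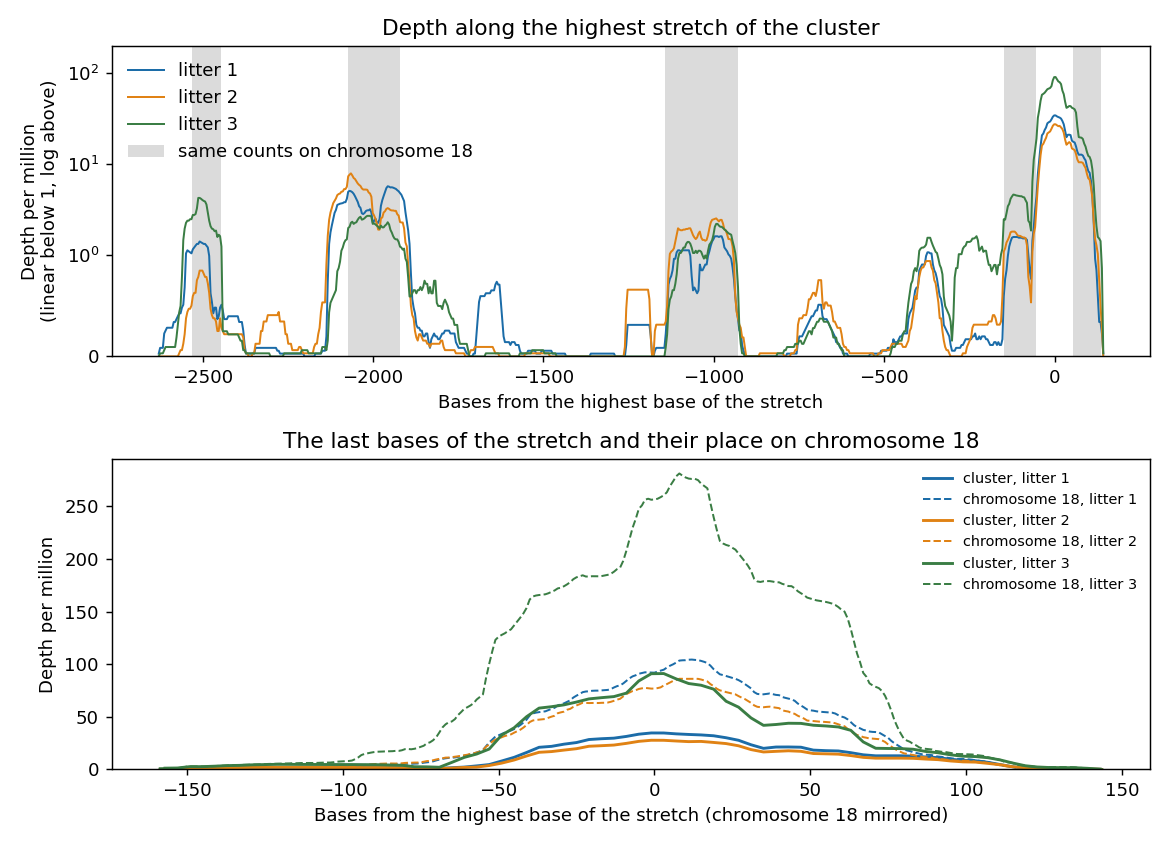
Depth per 1000000 alignments along the highest stretch, by bases from its highest base (top, linear below 1 and log above, with the 5 pieces whose counts recur on chromosome 18 in grey), and its last bases beside their mirrored place on chromosome 18 (bottom, solid for the cluster, dashed for chromosome 18). In each litter the peak on chromosome 18 is about 3 times as deep. With the litters summed, it lies 8 bases from the mirrored peak.

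Another stretch had copies over a longer distance, though in few runs. The stretch chr2:86165311-86168573 held 154, 142 and 233 alignments in litters 1, 2 and 3 (5.37 ± 1.65 CPM, SD, n = 3). Of its 47 runs, 6 recurred in the same direction at 2 distances on chromosome 16. The rule asks for at least 3 runs at each distance, so this match is near its limit. These runs held 37 alignments over the litters and spanned 2.39 kb in the cluster and 29.4 kb at chr16:16316744-16346177. That place held 1277, 1469 and 1351 alignments in the 3 litters, but over 29.4 kb. These totals therefore do not compare its depth with that of the stretch.

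The stretch chr2:87366213-87366913 was the fourth highest, with 206, 377 and 183 alignments in litters 1, 2 and 3, or 5.86, 11.9 and 5.71 CPM. It was covered without a break over 701 bases, and 90.3% of them were covered in every litter. Of its 72 runs, 38 recurred in the same direction at chr1:184061466-184061938, over 0.472 kb in the cluster and 0.473 kb on chromosome 1. That place held 169, 332 and 203 alignments in litters 1, 2 and 3. Litter 2 was the highest there too, which follows in part from the rule, since shared runs have identical counts.

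Other stretches had copies at many places, over short distances. The second highest, chr2:89696707-89698295, held 350, 335 and 287 alignments in litters 1, 2 and 3, or 9.95, 10.5 and 8.96 CPM (9.82 ± 0.797, SD, n = 3). All of its 79 runs recurred, at 24 places on 14 chromosomes, so 100% of its testable alignments lay in copies. Among these places, chr1:11697183-11697914 and chr5:13537121-13537852 each repeated all 79 runs and held 330, 311 and 265 alignments in litters 1, 2 and 3. The stretch and these copies were alike in every litter, as the rule on identical counts requires. Levels there cannot be assigned to 1 of the places.

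The sixth highest, chr2:88030440-88032132, held 223, 220 and 192 alignments in litters 1, 2 and 3 (6.42 ± 0.468 CPM, SD, n = 3). Of its testable alignments 83.4% lay in copies, at 12 places on 12 chromosomes, the most alike being chr2:112409565-112409745 with 30 of 52 runs. The eighth, chr2:88115997-88117612, held 57, 81 and 145 alignments, with 95.3% of the testable ones in copies at 13 places on 10 chromosomes. The ninth, chr2:89105695-89106505, held 139, 113 and 29 alignments, with 100% of the testable ones in copies at 3 places. The depth at its peak base, 123, 99 and 18 in litters 1, 2 and 3, occurred at 9 bases elsewhere. In these stretches the litters were ordered differently, with litter 3 highest in the eighth and lowest in the ninth.

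Further down, chr2:86029464-86030713 (69, 82 and 79 alignments) and chr2:86719023-86719992 (72, 52 and 26 alignments) had 85% and 90.9% of their testable alignments in copies, at 10 and 4 places. The narrow stretches chr2:88948322-88948434 (45, 37 and 41 alignments) and chr2:86086803-86086915 (22, 59 and 11 alignments), each 113 bases long, had 58.2% and 62.3%. The stretch chr2:87173959-87175101 (26, 24 and 84 alignments) had 29.5%, at 1 place on chromosome 3. Copies thus made up over 50% of the testable alignments in 7 of the 15 highest stretches and were found in 11 of the 15.

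No such copies were found for the other 4. The fifth highest stretch, chr2:87006312-87008704, held 309, 182 and 269 alignments in litters 1, 2 and 3, or 8.78, 5.73 and 8.40 CPM (7.64 ± 1.67, SD, n = 3). With 60 runs tested, none met the rule on shared distances, although 2 of its 10 runs with at least 50 alignments recurred. Its depth of 210, 111 and 94 at its peak occurred at no other base of the genome. This is the best covered place in the cluster for which no ordered copy was found, though copies with base differences leave no identical counts and were not looked for.

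The other 3 were too shallow to say much. The stretch chr2:85028252-85032225 held 46, 57 and 133 alignments, chr2:87403099-87403804 held 67, 90 and 26, and chr2:85860976-85863633 held 83, 49 and 22, of which 28, 67 and 13 were testable over the litters. In the first of these no base was covered in all litters, although each litter had at least 46 alignments there. It broke into 15 blocks of covered bases over 3974 bases. Coverage of the same place by every litter thus did not mean coverage of the same bases.

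**Figure D4:**
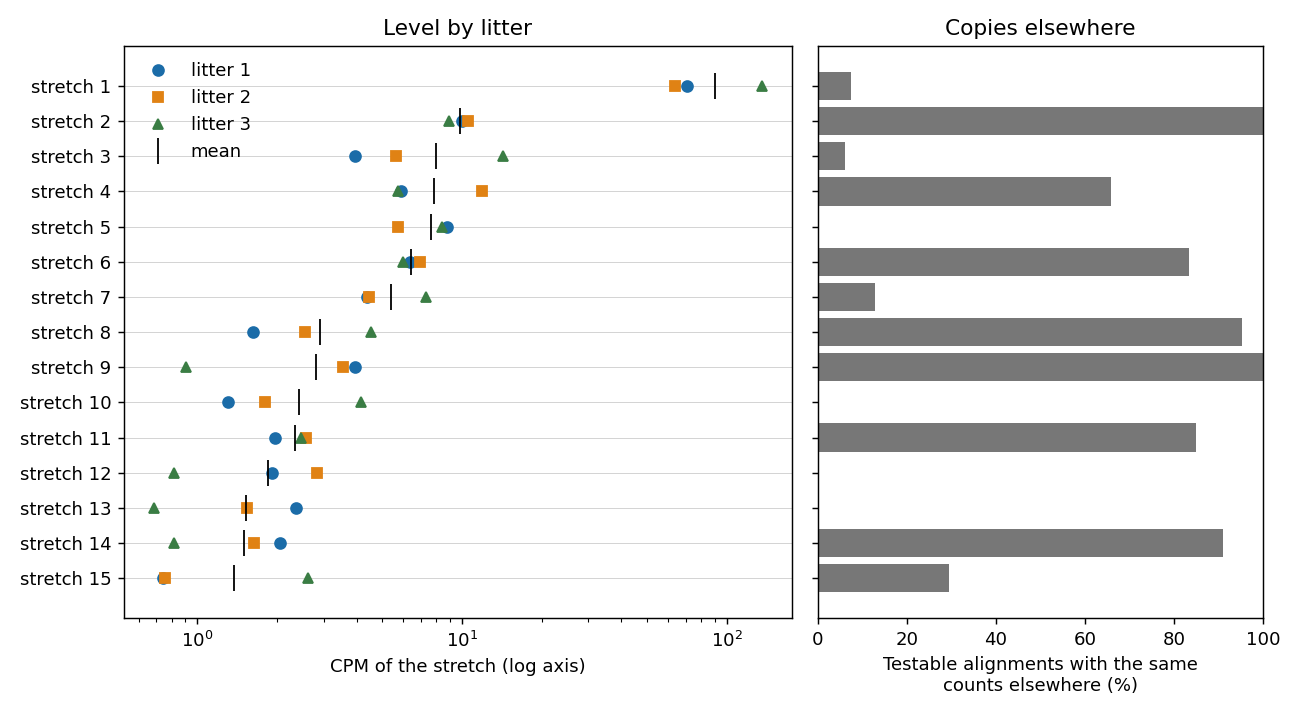
The 15 highest stretches of the cluster, numbered by mean CPM from the top: CPM in each litter with the mean (left, log axis), and the share of testable alignments with identical, ordered counts elsewhere (right, in %). The second and ninth are at 100%, the highest at 7.44%, and 4 of the 15 at 0%.

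The rule for naming stretches also takes those with at least 10 alignments in every litter. There were 20 of them, the 15 highest and 5 others, of which both narrow stretches above had copies. The other 3 had none under the rule. They were chr2:86860892-86863104, with 57, 10 and 54 alignments in litters 1, 2 and 3, and chr2:86163555-86163679, with 16, 30 and 28, and chr2:88419991-88420682, with 20, 11 and 16. Copies were also found for chr2:87387236-87387339, which is outside the naming rule and is given because it completes the 14 stretches with copies. It held 16, 32 and 5 alignments, and all of its 5 runs recurred, at 9 places on 6 chromosomes. The 157 stretches with fewer than 10 alignments over the litters held 368 in all, 2.19% of the cluster. None was deep enough to be tested for copies by itself, and 5 of these alignments lay in testable runs that reached into a neighbouring stretch.

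The last comparison was between the litters, window by window. The chi-square test sets the 3 counts of a window against Poisson error, with Benjamini-Hochberg adjustment over the 52367 windows of the genome with a mean of at least 1 CPM. A window was called at an adjusted p below 0.05 and a ratio of highest to lowest CPM + 0.5 above 4. It compares 3 libraries, not conditions, and leaves out amplification error. In the cluster 23 windows were deep enough, and 19 passed the adjusted p, beside 48250 of the 52367 over the genome. Only 2 of the 23 (8.70%) were also over 4-fold, below the 23.4% called over the genome. The median ratio was 1.99 in the cluster and 2.38 over the genome.

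The called windows went in opposite directions. The window chr2:85737001-85738000 held 0, 5 and 100 alignments in litters 1, 2 and 3, or 0, 0.157 and 3.12 CPM, a ratio of 7.24 on the CPM + 0.5 scale (chi-square test, adjusted p = 2.37e-41). It lies in the third highest stretch, chr2:85733296-85740736, which held 138, 179 and 457 alignments, or 3.92, 5.63 and 14.3 CPM. That stretch is the longest of the cluster, with 7441 bases in 21 covered blocks, and 24.1% of its covered bases were covered in every litter. In it, 6.20% of testable alignments had a copy, at 1 place on chromosome 5.

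The window chr2:87933001-87934000 went the other way, with 114, 22 and 2 alignments in litters 1, 2 and 3, or 3.24, 0.692 and 0.0624 CPM (ratio 6.65, chi-square test, adjusted p = 3.69e-30). These were all the alignments of the stretch chr2:87933377-87934044, where no copies were found among 30 testable alignments. Litter 3 was thus the highest library in 1 called window and the lowest in the other. With litter 3 left out, 0 windows of the cluster were called between litters 1 and 2, beside 6.26% of the genome.

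**Figure D5:**
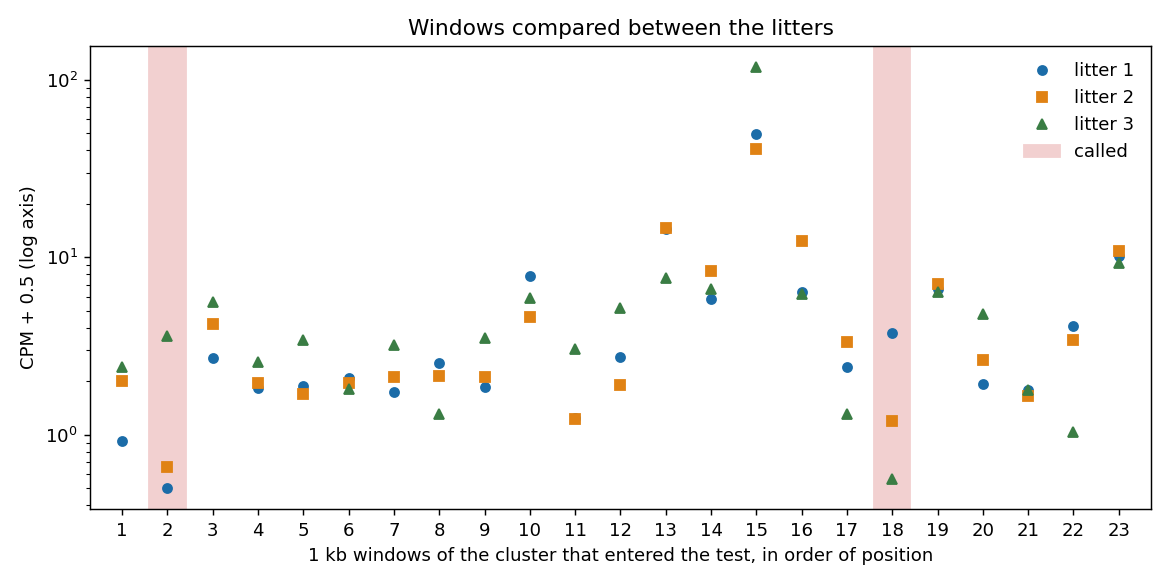
The 23 windows of the cluster that entered the test between litters, in order of position, with CPM + 0.5 of each litter on a log axis and the 2 called windows shaded. In window 2 litter 3 is the highest and in window 18 the lowest, while window 15, at the peak of the highest stretch, has the highest level in every litter.

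The remaining windows varied less. Windows of the sixth highest stretch and of chr2:88948322-88948434 held 216, 208 and 189 and 45, 37 and 41 alignments, and did not pass the chi-square test (adjusted p = 0.589 and 0.893). In the window with the peak of the highest stretch, chr2:87236001-87237000, counts were 1730, 1281 and 3768 in litters 1, 2 and 3, a ratio of 2.90, past the adjusted p but under 4-fold.

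Repeated starts were fewer in the cluster than in the libraries as a whole. A share of 61.2%, 60.0% and 71.8% of its alignments repeated a start position already counted in the same library, against 85.6%, 85.5% and 85.2% of all alignments of litters 1, 2 and 3. The median of the other spans was 73.7%, 75.0% and 74.0%, so the cluster was below it in each litter. This share rises with depth, which was not matched here. On the log2(CPM + 0.5) scale, over the 284 windows covered in some litter, litters 1 and 2 had a Pearson's r of 0.93, litters 1 and 3 of 0.81, and litters 2 and 3 of 0.84. The other spans had r of 0.91, 0.87 and 0.85 for the same pairs over 21986 windows, so the cluster was lower in the last 2 pairs and slightly higher in the first. Spearman's rho was 0.45, 0.31 and 0.39 in the cluster, against 0.60, 0.57 and 0.57 in the other spans. Of the windows covered in either litter of a pair, 40.1%, 41.0% and 37.8% were covered in both, against 55.4%, 53.4% and 54.0% in the other spans.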

How the data were processed

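RNA of oocytes from 3 litters was sequenced, 1 library each. The authors deposited 1 coverage track per library, a signal that gives the number of alignments over each base, not scaled to depth. Per the file headers each came from the sorted alignments of 1 lane. The aligner was Bowtie and the genome build mm9, per the submitters' processing notes. Version, filters and allowed placements were not given in the sources used here.

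Of blocks of depth 1 standing alone, 100% had a length divisible by 72, so each alignment was taken as 72 gapless bases and start positions were solved from the steps in depth, with 0 negative counts. Stretches, runs and the window test used counts by leftmost base, and levels used bases / 72. The stretches named are the 15 highest by mean CPM, those with at least 10 alignments in each litter and those with a called window. The cluster, lists and rules were chosen with earlier results of these data known. Python 3.11.15, numpy 2.4.6, pandas 2.3.3 and scipy 1.17.1 were used, and the computations were tested on simulated data. Separate litters are the replicates, with 1 library each. Reads amplified without molecular identifiers are not independent, so intervals and limits cover counting error only. The sequences behind the covered places are not printed, as no genome of this build was used here.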

Additional observations from a re-analysis of the deposited data

How the results depend on the processing

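Of 44 alternatives, 4 of them chosen after seeing the data, 26 left a result where it was, meaning within 1 SD over litters for levels, for counts and ranks within 1.5 times, or for the recurring share within its Wilson interval. The mean level of the cluster was 404 CPM with each start position counted once, 261 CPM with a total without the 100 highest windows and 80.7 CPM without the highest stretch, against 171 CPM. Leaving out each litter gave 144 to 186 CPM and kept the rank at 2. Covered windows per litter numbered 85.3 with at least 3 alignments, against 161, and 152 to 177 with a litter left out. At 10 kb they numbered 99, but of fewer and longer windows, so this count does not mean lower coverage. Stretches with at least 10 alignments numbered 56, against 89 when joined over gaps of up to 72 bases and 30 with at least 30 alignments. The background was 24.8 alignments per megabase, against 9.20 with stretches of at least 3 alignments left out, 53.1 with a limit of 30, and 22.9 to 28.2 with a litter left out. The 2 called windows, of 23 tested, became 0 of 2 at a mean of at least 10 CPM (genome 16.0%). At 2-fold 11 of 23 were called (47.8%, genome 61.9%), and with median-of-ratios scaling 3 of 23 (13.0%, genome 23.5%). With each start counted once 19 of 55 were called (34.5%, genome 32.2%), so there the cluster was not below the genome. With a litter left out 0 to 3 windows were called (genome 6.26% to 18.3%). The recurring share was 38.1% at 20 alignments per run (genome 21.9%), 57.7% at 10 (44.1%) and 52.1% for single start positions (60.8%), against 18.8%. Among the alternatives chosen afterwards, it was 34.9% with 3 runs at 1 distance, beside 16.0% in the other 35 spans pooled. It was 70.3% without the highest stretch, where the highest stretches of the other spans were not left out for comparison. For the moves that an alternative's construction does not fix, the cause was not tested. No paired analysis was possible because all libraries belong to 1 group. Depth limits the test for copies, since 75.2% of the cluster's alignments lay in runs deep enough.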
